A study of Mus musculus with 3 samples.

Results

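Interferon-stimulated genes are the genes that a cell switches on after an interferon binds its surface receptor. Type I interferons (alpha and beta) signal through Jak1 and Tyk2 to a complex with Stat2 and Irf9 that binds the interferon-stimulated response element, and interferon gamma signals through Jak1 and Jak2 to factors that bind the gamma-activated site. Their products sense foreign nucleic acid, block its translation or degrade it, and hinder the entry and release of viruses, and many are also kept at a low level in barrier, endothelial and immune cells with no infection. The list described here holds 39 such genes, chosen by symbol from the deposited table of raw counts with the condition of 50 or more counts summed over all columns. The condition was met by 39 of the 39, out of 55293 gene symbols in the table, of which 23539 reached that sum. The genes were chosen with earlier results of these data known.

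The counts came from single-cell RNA sequencing of dissociated whole mouse pituitaries of the genotypes TpitWT, TpitHT and TpitKO, each sequenced as 1 library and shortened here to WT, HT and KO. The gene Tbx19 encodes Tpit, a T-box factor that the Pomc-making corticotropes and melanotropes need to form. The labels do not spell out HT and give neither the construction of the allele, nor the strain, age, sex or number of the mice pooled into a library. Dead cells had been sorted out with propidium iodide in all 3 libraries before loading on Chromium 3′ v3 reagents. The libraries held 11222 cells and 107289047 counts (WT), 12839 cells and 152382545 counts (HT), and 13413 cells and 133252735 counts (KO), with 36 to 40 cell barcodes shared by a pair of libraries. Tbx19 itself was at 17.6, 12.4 and 0.690 CPM, the counts of a gene scaled to the total of all genes in the same cells, in WT, HT and KO. The authors placed the cells in 21 clusters numbered from 0, and the names used here, such as endothelial-like, come from marker genes. KO had no cells in cluster 6 (corticotrope-like) and cluster 7 (melanotrope-like). With 1 library per genotype there is no spread between animals, so no test was possible, every interval is a 95% interval for counting error only, and every difference is one between libraries. In what follows a gene counts as past the fold when its CPM differs at least 1.5-fold between 2 libraries that hold 50 or more of its counts together.

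The 2 regulatory sequences named above could be looked for in the promoters of part of the list. RefSeq promoters on GRCm38.p6, each 300 bases long with 250 before and 50 after a gene's start, were at hand for 29 of the 39 genes. The core of the interferon-stimulated response element, written GAAA, any 2 bases, GAAA, or TTTC, any 2 bases, TTTC on the opposite strand, was found in the promoter of 17 of the 29 (58.6%), against 3.99% of 27025 genes with a promoter in the same table and 3.74% of the 13288 among them with 50 or more counts. The gamma-activated site, TTCNNNGAA, which reads alike on both strands, was found in 12 of the 29 (41.4%) and in 9.55% of all genes. The 2 motifs may overlap, and a match is a match of letters only. The 9 stretches below lie before the start, and belong to genes whose values follow. They were chosen for holding the core, so its likeness between them is given by the choice. They are written 5′ to 3′ on the strand of the gene, with the letters of each core match in capitals.
Isg15, chr4:156200872-156200911, minus strand: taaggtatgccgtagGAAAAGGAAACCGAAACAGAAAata
Bst2, chr8:71537578-71537617, minus strand: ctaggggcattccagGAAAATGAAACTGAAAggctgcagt
Ifit1, chr19:34640770-34640818, plus strand: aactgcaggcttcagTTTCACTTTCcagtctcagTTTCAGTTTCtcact
Ifit3, chr19:34583358-34583397, plus strand: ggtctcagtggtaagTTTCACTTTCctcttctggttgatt
Ifit3b, chr19:34607754-34607793, plus strand: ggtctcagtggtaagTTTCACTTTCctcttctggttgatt
Tgtp2, chr11:49064258-49064297, minus strand: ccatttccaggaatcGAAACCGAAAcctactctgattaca
Gbp3, chr3:142559984-142560023, plus strand: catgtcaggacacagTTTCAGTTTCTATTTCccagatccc
Gbp7, chr3:142530268-142530307, plus strand: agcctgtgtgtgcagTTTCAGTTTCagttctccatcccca
Stat2, chr10:128270261-128270300, plus strand: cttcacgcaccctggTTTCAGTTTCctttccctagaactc
The match began 78 bases before the start in Isg15, 130 in Bst2 and 104 in Ifit1, where a further match follows within the same stretch. Ifit3 and Ifit3b, neighbours on chromosome 19, share their stretch letter for letter. No core match was found in the promoters at hand of Ifit2, Irf1, Irf7, Irf9, Oasl1, Oasl2, Ifi35, Ifi44, Xaf1, Dtx3l, Samhd1 and Isg20, which says only that these letters are not in that window.

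Most counts of the list came from the hormone-cell clusters, which are the largest, but its level per count was higher outside them. The hormone-cell clusters supplied 79.3%, 74.0% and 51.8% of the counts of the list in WT, HT and KO, beside 94.4%, 94.01% and 85.7% of all counts. Levels were taken per cluster as the mean CPM over the genotypes with 20 or more cells, for the 20 clusters with 100 or more cells over the libraries. Cluster 9, endothelial-like, gave the highest level for 20 of the 39 genes and cluster 8, macrophage-like, for 8. Together they led for 71.8% of the list, against 12.1% of the 23539 genes with 50 or more counts. Clusters 10 (stem-cell-like), 15 (fibroblast-like), 16 (unnamed) and 19 (macrophage-like) led for 2 genes each. The remaining leaders were cluster 18 (pituicyte-like) for Ifi27, cluster 13 (unnamed) for Stat2 and cluster 2 (somatotrope-like) for Isg20. Cluster 18 held 9, 2 and 107 cells in WT, HT and KO, so its levels here are those of KO alone. Ifi27 was highest in cluster 11 (unnamed) in WT and in cluster 10 in HT. The median over 7 non-hormone clusters (8, 9, 10, 15, 16, 18 and 19) lay above the median over the 9 hormone-cell clusters (0 to 7 and 14) for 38 of the 39 genes, Isg20 being the exception, and for 45.8% of all genes. The ranges of the 7 and the 9 clusters did not overlap, with the non-hormone clusters higher, for 13 genes of the list (33.3%) and for 1.87% of all genes. These are descriptions, since genes of the list were among those the cells could be clustered on.

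**Figure D1:**
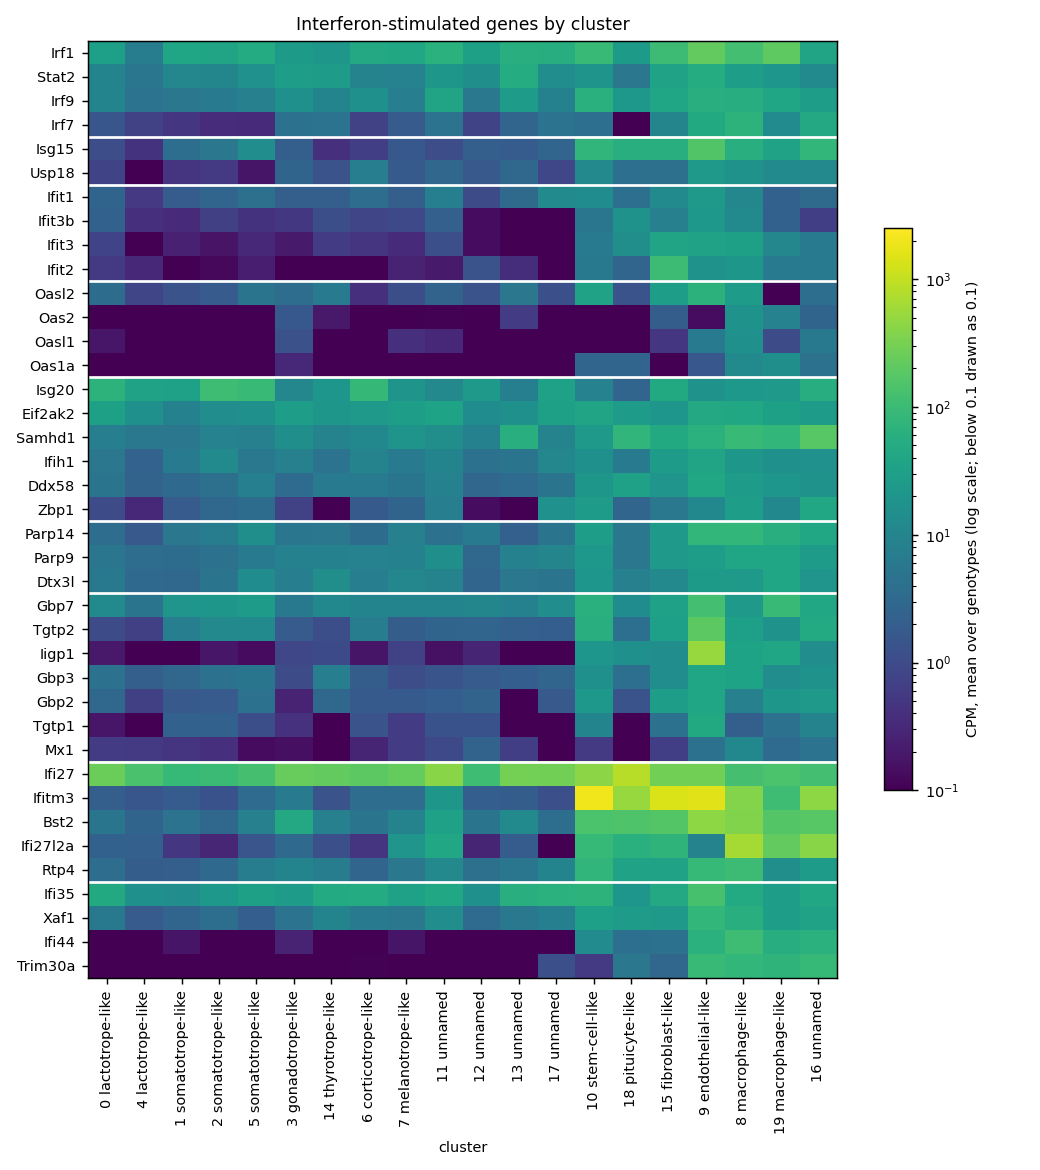
Level of the 39 genes (rows, grouped by role, with white lines between groups) in 20 clusters (columns), as CPM averaged over genotypes with 20 or more cells, on a log colour scale. The columns on the right (clusters 10, 18, 15, 9, 8, 19 and 16) are brighter for nearly the whole list, and Isg20 is brightest in the somatotrope-like clusters 2 and 5.

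Single genes differed in the cluster that led. Ifitm3, whose membrane protein hinders the entry of viruses, was at 2011 CPM in cluster 10, 1585 CPM in cluster 9 and 109 CPM in cluster 19, the lowest of the 7 non-hormone clusters, and at 1.29 to 6.20 CPM in the 9 hormone-cell clusters. Iigp1, an immunity-related GTPase, was nearly limited to the endothelial-like cluster at 524 CPM, with 38.3 CPM in the next cluster and at most 0.956 CPM in a hormone-cell cluster. Ifi27l2a, a small mitochondrial membrane protein gene, was at 645 CPM in cluster 8 and 419 CPM in cluster 16, and its hormone-cell maximum was 20.0 CPM, in the melanotrope-like cluster. These 3 genes thus led in 3 different clusters.

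Further genes had a leader of their own. Ifit2, one of the RNA-binding IFIT genes, was at 104 CPM in the fibroblast-like cluster and 20.98 CPM in the next, and the fibroblast-like cluster led in each of the 3 libraries. Samhd1, which breaks down deoxynucleotides, was at 180.0 CPM in cluster 16 and 91.6 CPM in cluster 8. Bst2, which tethers budding virus particles to the cell, was at 444 CPM in cluster 9 and 370 CPM in cluster 8, and within the hormone cells stood highest in gonadotrope-like cells at 45.3 CPM. The transcription factor gene Irf1 was broad, at 218 CPM in cluster 9 and 7.11 to 51.5 CPM in the hormone cells. Eif2ak2, the kinase that halts translation on double-stranded RNA, was at 45.4 CPM in its highest cluster and 31.2 CPM in lactotrope-like cluster 0.

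**Figure D2:**
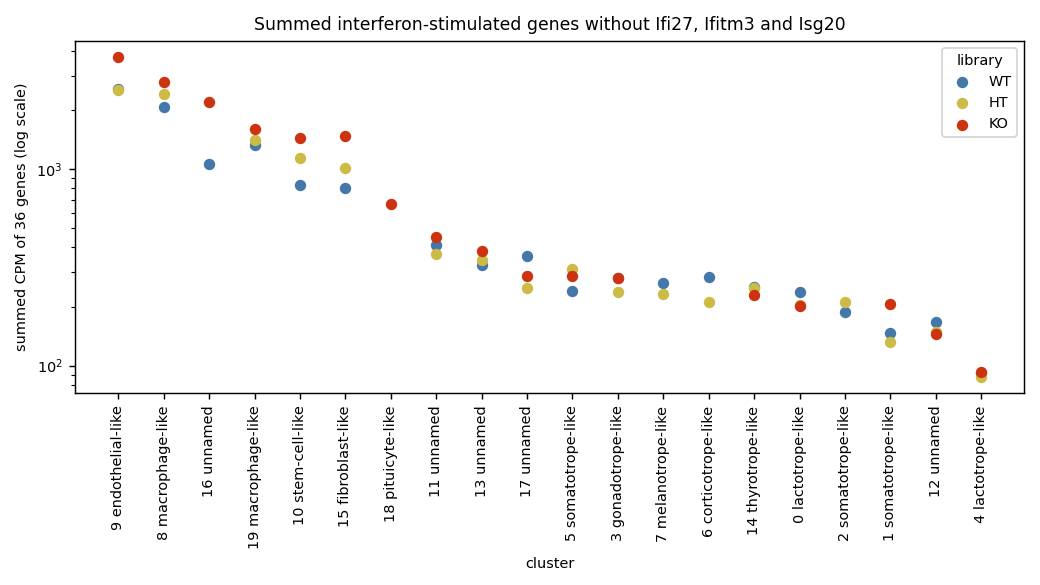
Summed CPM of 36 genes of the list (log axis), leaving out Ifi27, Ifitm3 and Isg20, in each cluster and library with 20 or more cells; each point is 1 library. Clusters 9, 8, 16, 19, 10 and 15 lie above the others in each library shown, and KO is the highest point in each of those 6.

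Summed over all cells, the 39 genes took 554, 565 and 720 CPM in WT, HT and KO. KO was 1.30 times WT (1.29 to 1.31) and 1.27 times HT, while HT was 1.02 times WT. Ifi27 (30.7%), Ifitm3 (11.2%) and Isg20 (9.32%) supplied much of that sum. Without them the other 36 genes took 259, 260 and 378 CPM, and KO was 1.46 times WT (1.44 to 1.48). The sums of WT and HT were therefore nearly level, and that of KO stood above both. Gene by gene, 26 of the 39 rose in the order WT, HT, KO (66.7%), against 25.0% of all genes. HT was above WT by any margin for 27 of the 39, against 47.3% of all genes.

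Gene by gene over all cells, 20 of the 39 were past the fold and higher in KO than in WT, where 12.3% of all genes were. Isg20 alone was past the fold and lower, where 5.75% of all genes were, and 35 of the 39 were higher by any margin against 62.2% of all genes. The median log2 ratio of the list was 0.65, beside 0.07 over all genes. The authors' scaled counts were averaged over the clusters of a library with equal weight for each, so cluster weights changed along with the scaling. With them 11 of the 39 were past the fold and higher (13% of all genes), and the medians were 0.28 and -0.03. Against HT, 19 of the 39 were past the fold and higher in KO (12.5% of all genes), and 1, Isg20, was lower (4.38%). Between HT and WT, none of the 39 was past the fold and higher (3.04%) and 1, Oasl1, was lower (4.39%). The comparisons of KO with WT and with HT share the KO library. Since the list was chosen with earlier results of these data known, the shares of all genes describe it and do not test it.

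**Figure D3:**
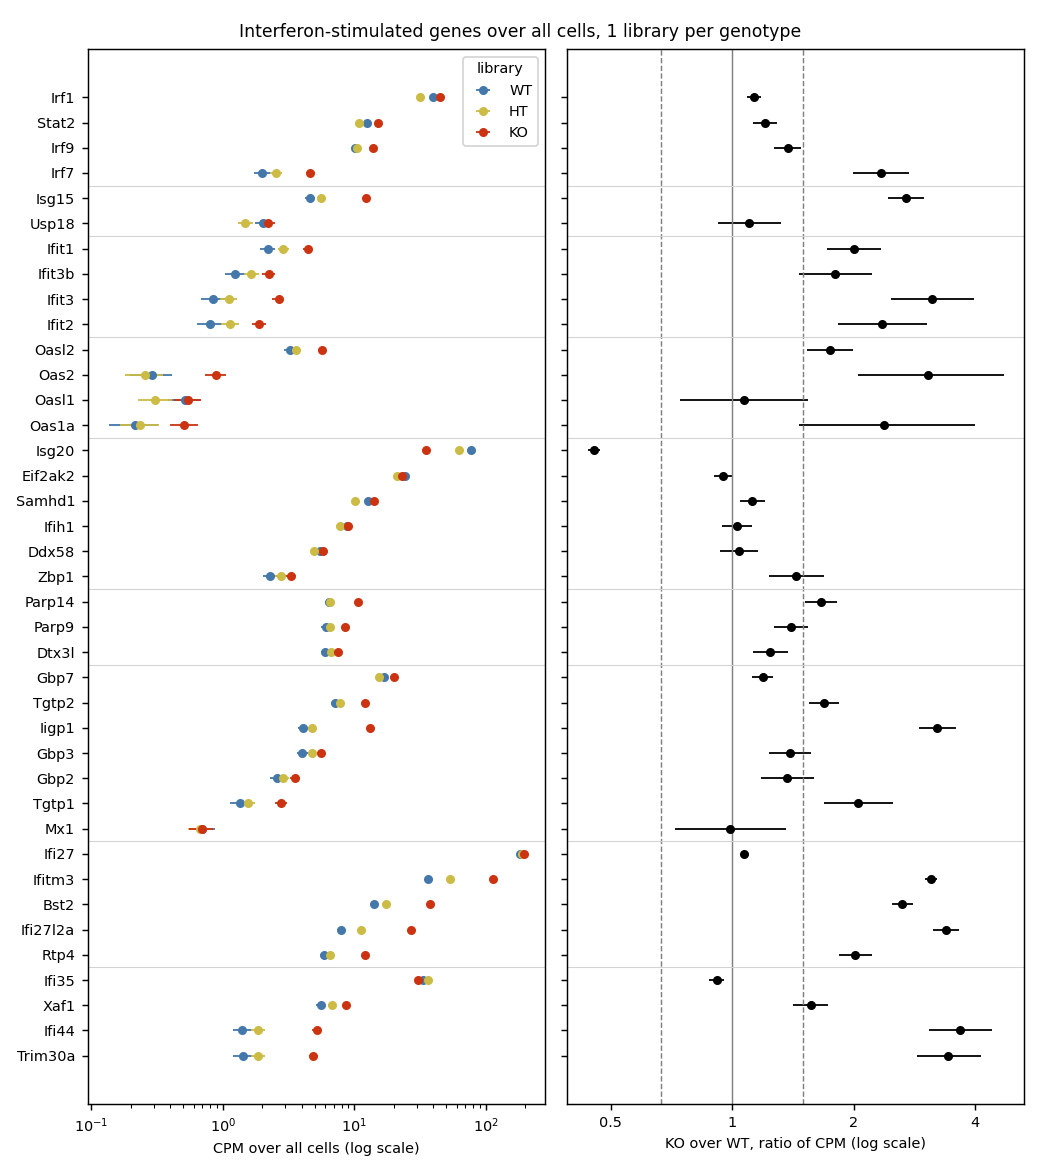
Left, CPM of each gene over all cells (log axis) in the WT, HT and KO libraries, with 95% Poisson intervals for counting error. Right, ratio of KO to WT (log axis) with its 95% interval; dashed lines mark 1.5-fold in each direction, and 20 genes lie beyond the right line while Isg20, at 0.455, lies beyond the left.

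Among the transcription factors, only 1 of 4 was past the fold. Irf7, which amplifies the interferon response, was at 1.99, 2.54 and 4.64 CPM in WT, HT and KO, 2.34 times WT. Irf1 was at 39.8, 31.8 and 45.1 CPM, and Stat2, a subunit of the complex that binds the response element, at 12.5, 10.9 and 15.1 CPM. Both had HT as the lowest library. Irf9, the DNA-binding partner of Stat2, was 1.37 times WT, though its gene model overlaps Rnf31 on the same strand.

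Of the ISG15 system, Isg15 encodes a ubiquitin-like protein that is attached to other proteins, and Usp18 removes it and damps the receptor. Isg15 was at 4.59, 5.61 and 12.4 CPM, 2.70 times WT (2.44 to 2.99). Usp18 was at 2.01, 1.49 and 2.22 CPM and was not past the fold. Over all cells, then, only the modifier gene was past the fold. Corticotrope-like cluster 6, absent from KO, supplied 83 WT counts of Usp18, a level of 10.4 CPM. With each shared cluster given its WT share of counts, KO came to 1.26 times WT for Usp18 and 1.89 times for Isg15. Within stem-cell-like cluster 10 both genes were past the fold and higher in KO, and within clusters 8 and 9 only Isg15 was.

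The IFIT genes, whose products bind viral RNA, were past the fold in 4 of 4. Ifit1 was at 2.20, 2.88 and 4.41 CPM, Ifit2 at 0.802, 1.14 and 1.88 CPM, Ifit3 at 0.848, 1.11 and 2.66 CPM, and Ifit3b at 1.25, 1.65 and 2.24 CPM. KO was the highest library for each and WT the lowest. Of the OAS genes, which make the second messenger that activates RNase L or are relatives of those enzymes, 3 of 4 were past the fold. Oasl2 was at 3.24, 3.62 and 5.67 CPM, Oas2 at 0.289, 0.256 and 0.886 CPM and Oas1a at 0.214, 0.236 and 0.510 CPM. Oas2 and Oas1a rested on 188 and 127 counts over all libraries. Oasl1 was 1.07 times WT.

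Of the 6 genes that sense or degrade nucleic acid, none was past the fold and higher over all cells and 4 were higher by a smaller margin. Isg20, an RNA exonuclease gene, was at 77.6, 62.3 and 35.3 CPM, 0.455 times WT (0.439 to 0.471). Eif2ak2 was at 24.2, 21.2 and 23.0 CPM. The RNA sensor genes Ifih1 and Ddx58 were 1.03 and 1.04 times WT, Samhd1 was 1.12 times WT, and Zbp1, a sensor of left-handed nucleic acid, was 1.44 times WT. Of the 3 genes around the ADP-ribosyltransferases, Parp14 was past the fold at 6.48, 6.52 and 10.7 CPM, and Parp9 was at 6.08, 6.51 and 8.50 CPM. Dtx3l, the ubiquitin ligase partner of Parp9, was 1.24 times WT. Parp9 and Dtx3l overlap on opposite strands.

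Among the GTPases, 3 of 7 were past the fold. Iigp1 was at 4.11, 4.73 and 13.3 CPM, 3.23 times WT, Tgtp1 at 1.35, 1.55 and 2.77 CPM, and Tgtp2 at 7.09, 7.74 and 11.98 CPM. Gbp7, a guanylate-binding protein gene, was at 16.8, 15.5 and 20.0 CPM, and Gbp2 and Gbp3 were 1.37 and 1.39 times WT. Mx1, the dynamin-like antiviral GTPase gene, was the flattest at 0.988 times WT.

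Of the 5 membrane and mitochondrial genes, 4 were past the fold. Ifitm3 was at 36.3, 53.7 and 113 CPM, 3.11 times WT. Bst2 was at 14.2, 17.4 and 37.6 CPM, and Ifi27l2a at 7.91, 11.2 and 26.9 CPM. Rtp4, a transmembrane protein gene, was at 5.93, 6.52 and 11.98 CPM. HT lay between WT and KO for each of these 4. Ifi27, which supplied more counts than any other gene of the list, was at 181, 190 and 194 CPM and 1.07 times WT.

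Of the remaining 4 genes, 3 were past the fold. Ifi44 was at 1.41, 1.85 and 5.18 CPM, the largest ratio of the list at 3.68 (3.08 to 4.42). Trim30a, a TRIM family gene, was at 1.42, 1.85 and 4.87 CPM, and Xaf1, which encodes an antagonist of the apoptosis inhibitor XIAP, at 5.57, 6.74 and 8.72 CPM. Ifi35 was at 33.3, 36.1 and 30.5 CPM. Within the 29 genes with a promoter at hand, 10 of the 17 with a response element core and 5 of the 12 without were past the fold and higher. The share over all genes was 12.3%, and it was not computed apart for genes with and without the core. Whether the core goes with the ratio was not tested.

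Clusters in which the list is high took a larger share of the KO library, so the sum over cells mixes levels with proportions. Cluster 9 held 0.696%, 0.801% and 1.76% of all counts in WT, HT and KO, and 6.91%, 7.85% and 17.5% of the counts of the 36 genes. When each of 16 clusters shared by WT and KO was given its WT share of counts, the 39 genes were 1.07 times WT in KO and the 36 genes 1.16 times WT. With equal weight for each cluster the 39 genes were 1.41 times WT. Of the 20 genes past the fold over all cells, 9 were still past it at WT shares, among them Ifi27l2a at 2.31, Ifi44 at 2.18, Ifit3 at 1.96, Isg15 at 1.89 and Ifitm3 at 1.84, whereas Iigp1 came to 1.36 and Bst2 to 1.41. Isg20 stayed at 0.469. The share of all genes past the fold at WT shares was not computed, so the 9 have no background beside them. Over the hormone-cell clusters alone the 39 genes were 0.936 times WT, so the direction of their summed level depended on which cells were summed. That sum includes Isg20, and gene by gene 22 of 34 were higher in KO there (50.1% of all genes). The 36 genes were 0.846, 1.42, 1.01 and 1.01 times WT in hormone-cell clusters 0, 1, 3 and 4. Levels were therefore compared within the 7 clusters with 100 or more cells in WT and in KO (0, 1, 3, 4, 8, 9 and 10).

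**Figure D4:**
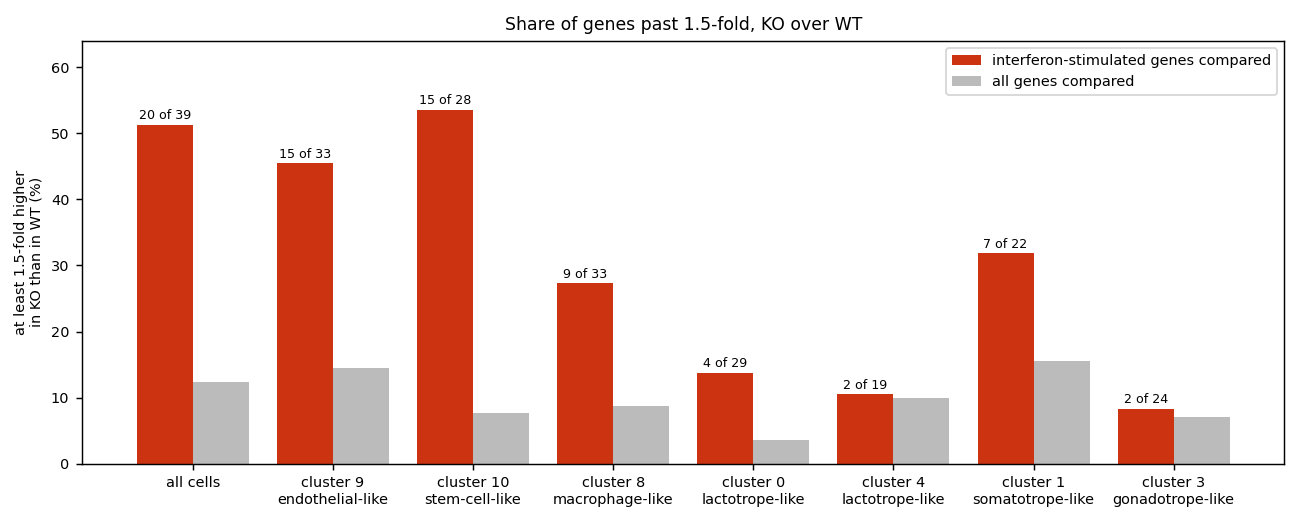
Percentage of genes at least 1.5-fold higher in KO than in WT, for the list (red, with the number past the fold of the number compared) and for all genes compared (grey), over all cells and within 7 clusters. The red bars stand at 45.5% and 53.6% in clusters 9 and 10, and are near the grey bars in clusters 3 and 4.

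Endothelial-like cluster 9 held 207, 281 and 552 cells. Of 33 genes of the list with enough counts, 15 were past the fold and higher in KO than in WT (14.5% of all genes), and 2, Isg20 and Dtx3l, were lower (7.65%). Against HT, 17 of 35 were higher (7.90%) and none was lower (5.36%), and 2 of 27 were higher in HT than in WT (11.3%). Ifit1 was at 16.1, 18.8 and 37.1 CPM in WT, HT and KO, and its neighbour Ifit3b at 16.1, 16.4 and 32.8 CPM. For both, WT and HT were close and KO stood above them. Ifitm3 was at 1087, 1616 and 2053 CPM, Rtp4 at 57.5, 97.5 and 110.0 CPM, and Eif2ak2 at 30.8, 46.7 and 58.8 CPM. In these HT stood between the others.

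The genes with many endothelial-like counts had narrower intervals. Bst2 was at 365, 371 and 595 CPM, 1.63 times WT (1.43 to 1.86), and Isg15 at 135, 118 and 219 CPM, 1.62 times WT (1.31 to 2.02). Tgtp2 was at 167, 164 and 260 CPM, and Trim30a at 73.6, 73.8 and 138 CPM. WT and HT lay within each other's intervals for Bst2, Tgtp2 and Trim30a, with KO above both. Iigp1, the gene most limited to this cluster, was at 455, 438 and 677 CPM, 1.49 times WT (1.32 to 1.68) and just short of the fold. Irf1, at 215, 203 and 235 CPM, and Stat2, at 52.2, 45.9 and 60.1 CPM, were not past the fold. Leaving hormone, mitochondrial, ribosomal protein and hemoglobin genes out of the totals gave 10 of 33 (10.3% of all genes).

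**Figure D5:**
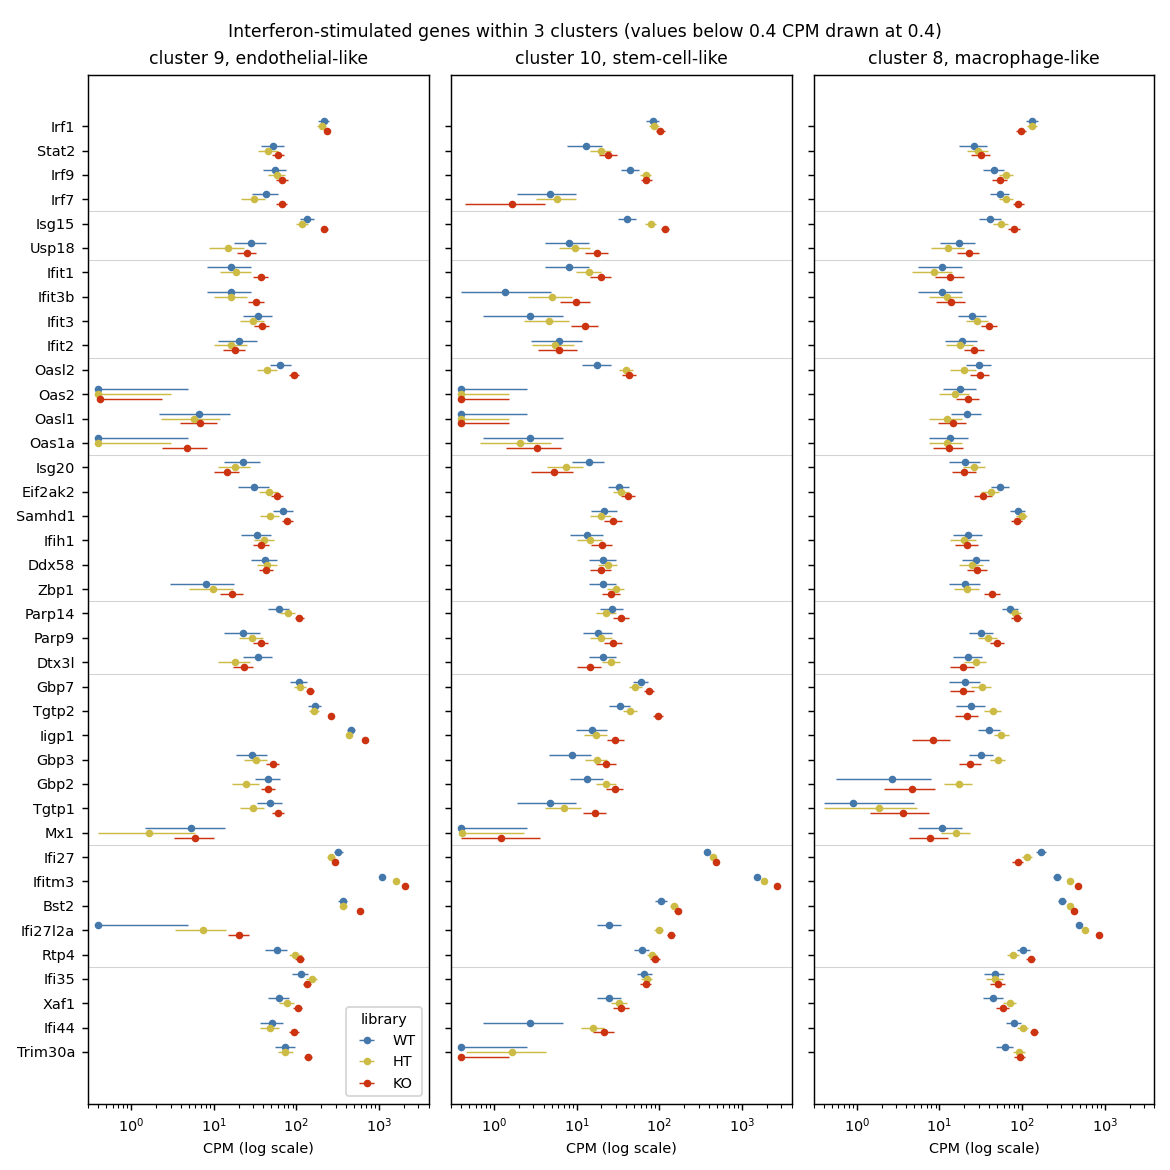
CPM of each gene (log axis) in the WT, HT and KO libraries within clusters 9, 10 and 8, with 95% Poisson intervals for counting error; grey lines separate groups by role. KO is the highest library for most genes of clusters 9 and 10, and HT lies near KO for Ifi27l2a and Ifi44 in cluster 10.

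Stem-cell-like cluster 10 held 264, 358 and 415 cells. Of 28 genes with enough counts, 15 were past the fold and higher in KO than in WT (7.67% of all genes), and none was lower (6.24%). Ifi44 was at 2.71, 15.8 and 21.4 CPM, 7.89 times WT with a wide interval (2.90 to 30.1) from 4 WT counts. Ifi27l2a was at 25.0, 98.7 and 139 CPM, 5.56 times WT (3.96 to 8.04), and its 339 KO counts came from 143 cells. Isg15 was at 41.3, 79.1 and 119 CPM. In all 3 genes HT stood well above WT. Tgtp2, at 33.1, 44.1 and 96.9 CPM, and Gbp3, at 8.79, 17.5 and 23.0 CPM, also had KO highest. Ifitm3, whose highest cluster this was, was at 1506, 1874 and 2653 CPM, 1.76 times WT (1.68 to 1.85).

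In this cluster part of the difference was also present between HT and WT. Of 25 genes compared, 7 were past the fold and higher in HT than in WT (5.56% of all genes), namely Isg15, Irf9, Stat2, Oasl2, Ifi27l2a, Gbp2 and Gbp3, and none was lower (5.72%). Between KO and HT, 6 of 29 were higher (7.77%), namely Isg15, Usp18, Parp14, Iigp1, Tgtp1 and Tgtp2, and 1 was lower (5.51%). The transcription factor genes Irf9, at 44.6, 69.1 and 69.8 CPM, and Stat2, at 12.9, 19.6 and 24.2 CPM, were past the fold against WT here and in none of the other 6 clusters compared. Whether those ratios differ between clusters was not tested, and Irf9 was also past it, at 1.59, between KO cluster 5 and WT cluster 2, both somatotrope-like.

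Macrophage-like cluster 8 held 307, 377 and 417 cells. Of 33 genes, 9 were past the fold and higher in KO than in WT (8.80% of all genes) and 3 were lower (8.21%). Zbp1 was at 20.6, 21.4 and 43.9 CPM, the only one of these 5 for which WT and HT were level. Isg15 was at 41.3, 55.7 and 80.0 CPM, and Ifi44 at 79.9, 102 and 139 CPM. Ifi27l2a was at 488, 581 and 866 CPM, 1.78 times WT (1.61 to 1.96), and Ifitm3 at 268, 383 and 477 CPM. The lower genes were Iigp1 at 40.4, 56.3 and 8.26 CPM, Ifi27 at 171, 115 and 89.3 CPM, and Eif2ak2 at 54.7, 41.6 and 33.6 CPM. The Iigp1 counts came from 11 WT, 17 HT and 11 KO cells, so its values rest on few cells. How the counts were spread among those cells is not given. Against HT only 4 of 32 were higher (7.18%) and 4 were lower (6.30%), and 4 of 30 were higher in HT than in WT (7.07%).

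Ifi44, Ifitm3, Isg15 and Parp9 were past the fold and higher in KO than in WT in all of clusters 8, 9 and 10. Bst2, Gbp3, Ifit1 and Tgtp2 joined them in clusters 9 and 10. The share of all genes past the fold in those clusters together was not computed, so these genes have no background beside them. The summed level of the 36 genes was 1.34 times WT in cluster 8, 1.46 in cluster 9 and 1.73 in cluster 10. The fibroblast-like cluster 15, with 57, 99 and 144 cells, had 799, 1020 and 1481 CPM, and cluster 16, with 72 WT and 161 KO cells, had 1071 and 2204 CPM in those libraries. These clusters had too few WT cells for the comparison gene by gene.

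Other cells' transcripts moved with genotype in the same clusters. Growth hormone (Gh) transcripts, which these cells do not make, were at 94501, 39604 and 26901 CPM in cluster 9, and Pomc at 3212, 1295 and 10.7 CPM. The beta-globin gene Hbb-bs was at 570, 9386 and 1035 CPM there. The 8 macrophage markers summed to 50.9, 107 and 101 CPM in cluster 9, with 3 of the 8 at 0 in WT, and to 25.7, 60.8 and 7.39 CPM in cluster 10. The 7 endothelial markers summed to 23.7, 7.08 and 24.6 CPM in cluster 10, where Iigp1 was at 15.6, 17.1 and 29.6 CPM. The 6 T and NK cell markers were at 0 in WT in clusters 8, 9 and 10, and summed there to 3.06, 10.7 and 5.41 CPM in HT and to 0.516, 2.56 and 0.821 CPM in KO. The 6 stem cell markers summed to 3632, 3611 and 2585 CPM in cluster 10. The 5 markers of dividing cells summed to 53.8, 21.4 and 4.13 CPM in cluster 8. They summed to 92.3, 225 and 66.1 CPM in cluster 9 and to 49.4, 2.50 and 6.57 CPM in cluster 10. The part of these in the results was not tested.

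In lactotrope-like and gonadotrope-like cells most genes of the list were low and the direction against WT was mixed. Ifi27, at 257 CPM in cluster 0, was not low. Lactotrope-like cluster 0 had 4 of 29 past the fold and higher in KO than in WT (3.57% of all genes) and 3 lower (6.46%), with a summed level of the 36 genes of 239, 205 and 202 CPM. The higher genes were Ifit1, Ifit3, Ifi27l2a and Ifitm3, none above 3.71 CPM in KO. Cluster 4, also lactotrope-like, had 2 of 19 higher (9.87%) and 2 lower (2.76%), and gonadotrope-like cluster 3 had 2 of 24 higher (6.99%) and 2 lower (8.14%). Against HT, 5 of 20 were higher in cluster 4 (9.33%) and 4 of 25 in cluster 3 (8.53%), and none was lower (2.69% and 4.80%). By any margin 10 of 20 were higher than in HT in cluster 4 (63.1%) and 21 of 25 in cluster 3 (59.6%). In cluster 0, 3 of 30 were past the fold and higher than in HT (5.04%) and 3 were lower (4.16%). In gonadotrope-like cells Rtp4 was at 7.75, 8.44 and 12.6 CPM, whereas Oasl2 was at 5.96, 2.11 and 3.04 CPM.

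Somatotrope-like cells had more genes past the fold, without a test of that difference. In cluster 1, 7 of 22 were past the fold and higher in KO than in WT (15.5% of all genes) and 1 was lower (4.96%), in a cluster where the median log2 ratio of all genes was itself 0.19. With hormone, mitochondrial, ribosomal protein and hemoglobin genes left out of the totals the count was 4 of 22 (7.90%). Against HT, 13 of 25 were higher (18.6%). Gbp7 was at 16.4, 15.9 and 27.8 CPM and Parp14 at 4.12, 3.75 and 8.73 CPM. The remaining somatotrope-like cells fell mostly in different clusters by genotype, cluster 2 in WT and HT (2081 and 2092 cells, against 17 in KO) and cluster 5 in KO (2457 cells, against 28 in WT and 24 in HT), so cluster and genotype cannot be told apart there. Of 27 genes, 17 were past the fold and higher in KO cluster 5 than in WT cluster 2 (13.8% of all genes), 1, Isg20, was lower (6.08%), and 9 of 28 were higher than in HT cluster 2 (11.1%). Isg15 was at 4.77, 6.20 and 9.27 CPM, Irf1 at 39.3, 33.4 and 63.2 CPM, and Gbp7 at 20.8, 21.8 and 33.0 CPM in WT cluster 2, HT cluster 2 and KO cluster 5.

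Isg20 stood apart from the rest of the list in both place and direction. Its level was 106 CPM in cluster 2 and 96.5 CPM in cluster 5, and 10.9 to 106 CPM over the hormone-cell clusters. It was past the fold and lower in KO than in WT in 5 of the 6 clusters where it had enough counts, namely 0, 1, 3, 4 and 9. In cluster 0 it was at 88.2, 78.6 and 40.7 CPM, in cluster 1 at 41.3, 37.9 and 20.8 CPM, and in cluster 4 at 50.2, 31.5 and 21.5 CPM. The KO library was the lowest in each of these 3 clusters. Between WT cluster 2 and KO cluster 5 it was at 121 and 76.0 CPM.

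The interferon genes themselves had few counts. The 21 interferon genes looked up had 125 counts in all libraries together, of which Ifng had 50, highest in cluster 16 at 39.5 CPM. None of them had enough counts for a comparison. Of 6 receptor genes, 1, Ifnlr1, a subunit for interferon lambda, was past the fold and higher in KO over all cells, at 0.624, 0.532 and 1.08 CPM. Ifnar2, a subunit of the type I receptor, was at 33.4, 37.4 and 40.6 CPM, and was highest in cluster 8. Of 10 genes for kinases, STAT factors and feedback inhibitors none was past the fold and higher over all cells. Among those with enough counts, 1 of 7, 1 of 8 and 1 of 9 were higher in clusters 8, 9 and 10. These counts stand beside 12.3% of all genes over all cells and 8.80%, 14.5% and 7.67% in those clusters. Socs1, a feedback inhibitor, was at 36.1, 39.3 and 63.5 CPM in cluster 9.

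Of 11 genes for other IRF factors and sensors with enough counts, 3 were past the fold over all cells, namely Irf8, Cgas and Sting1. Irf8, a factor of myeloid cells, was at 6.63, 7.15 and 12.1 CPM, and the DNA sensor genes Cgas and Sting1 were at 0.615, 0.669 and 1.13 CPM and at 1.33, 1.19 and 2.27 CPM. These 3 were highest in the macrophage-like cluster 19. Of 44 further interferon-stimulated genes outside the list, 24 were past the fold and higher in KO over all cells and none was lower, beside the same 12.3% and 5.75% of all genes. Within clusters the counts were 10 of 29 higher and 2 lower in cluster 9 (14.5% and 7.65% of all genes), 3 of 12 higher in cluster 10 (7.67%), and 5 of 26 higher and 3 lower in cluster 8 (8.80% and 8.21%). Ifitm2, the gene of this set with the most counts, was at 104, 120 and 111 CPM over all cells, unlike Ifitm3. Slfn5, a schlafen family gene, was at 222, 374 and 428 CPM in cluster 9. The chemokine gene Cxcl10 was at 0.676, 0 and 66.5 CPM in cluster 10. Slfn5 and Cxcl10 were named after their values were seen. The lists of related genes were also chosen with earlier results of these data known, so the shares of all genes beside them are no test.

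Several genes of the list have near copies, and the authors' counting could split or drop such reads. Counting windows of 91 bases, the length of the sequenced read, 74.7% of those of Tgtp1 transcripts and 78.4% of those of Tgtp2 occurred in a transcript of another gene, mostly of each other. The shares were 43.2% for Oas1a, shared with Oas1g, 34.7% for Ifit3 and 30.1% for Ifit3b, shared between them, 10.4% for Gbp7 and 4.61% for Trim30a, shared with Trim30d. In the last 500 bases, the end that 3′ libraries read, they were 73.8% for Tgtp1, 65.8% for Tgtp2, 42.2% for Oas1a, 17.7% for Trim30a, 6.34% for Ifit3 and 0 for Ifit3b and Gbp7. Values of Tgtp1, Tgtp2 and Oas1a taken singly are uncertain for that reason, and those of Trim30a and Ifit3 to a lesser degree. For Isg15, Ifitm3, Bst2, Ifi44, Ifi27l2a, Iigp1, Irf7 and Isg20 no window was shared.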

How the data were processed

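Raw counts were deposited by the authors in a table with 55403 gene rows and 61 columns, 1 for each cluster of a genotype, together with how many cells had any count, and a list of barcodes with their cluster numbers (unit other). Whether reads were collapsed to molecules is not given in the sources used here, so values are called counts. The authors' scaled counts, a deposited signal table in which each raw column is multiplied by 1 factor, served as an alternative. For all cells they were averaged over the clusters of a library with equal weight for each. Per the submitters' processing notes, Cell Ranger 5, Seurat 3.1 and DESeq2 were used, and the builds are mm10 and GRCm38. The members and lists were chosen with earlier results of these data known. Rows with the same symbol were added. Cluster names rest on marker lists, and doublets were not treated further.

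CPM and plain ratios of CPM were computed with Python 3.11.15, pandas 2.3.3 and scipy 1.17.1 over all gene counts of the cells compared. Poisson, binomial and conditional binomial intervals are exact at 95%, treat counts as independent and are too narrow for counts clustered in cells. A count of 0 allows 3 counts. Genes were named by role: in each group the 2 with most counts and those with a KO to WT ratio of at least 2 or at most 0.5, and within clusters up to 5 each way past the fold against WT that lay on the same side of HT. Any other member could be named too. The scripts were tested on simulated data. Figures were drawn with matplotlib 3.10.9. Depth per library was 107289047 to 152382545 counts. Alternatives covered totals, scaling, filters, pseudocounts of 1 and 10 CPM, the cells summed and HT as reference.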

Additional observations from a re-analysis of the deposited data

Results flagged for a closer look

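In 4 genes of the list KO was past 1.5-fold higher than WT in 1 cluster and past 1.5-fold lower in another. Each value has 1 library behind it, and the difference between the clusters was not tested. The share of all genes with such opposite directions was not computed, so the 4 have no background beside them. Oasl2 was 2.45 times WT in stem-cell-like cluster 10, 0.633 times WT in lactotrope-like cluster 0 and 0.51 times WT in gonadotrope-like cluster 3. Gbp2 was 2.16 times WT in cluster 10 and 0.648 times WT in cluster 0. Iigp1 was 1.9 times WT in cluster 10 and 0.205 times WT in macrophage-like cluster 8, where 11 cells of each of those libraries held its counts. Eif2ak2 was 1.91 times WT in endothelial-like cluster 9 and 0.613 times WT in cluster 8.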

How the results depend on the processing

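No paired analysis was possible because there was 1 library per genotype, and no replicate could be left out. Of 82 alternatives, 45 stayed near the reported value, 36 moved it and 1 reversed it, and the cause was not tested. Over hormone-cell clusters only, the summed KO to WT ratio reversed from 1.30 to 0.936, 22 of 34 genes were higher in KO (50.1% of all genes), and 9 of 34 were past the fold (6.99%). The summed ratio was 1.24 with hormone, mitochondrial, ribosomal protein and hemoglobin genes left out of the totals, 1.39 with the authors' scaled counts, 1.14 without the macrophage-like and endothelial-like clusters, 1.27 against HT and 1.46 without the 3 genes with most counts. At WT cluster shares it was 1.07, with equal weights 1.41, and over clusters with 100 or more cells 1.05. The 20 genes past the fold over all cells became 11 with scaled counts (13% of all genes) and 5 with a pseudocount of 10 CPM (0.716%). Over all cells the scaled counts gave each cluster of a library equal weight, so those values differ in scaling and in cluster weights. Per cell instead of per count, cluster 9 led for 12 genes, not 20.

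Within clusters, with no filter beyond 1 count, the genes past the fold were 9 of 39, 16 of 34, 7 of 39 and 10 of 37 in clusters 0, 1, 3 and 4, in place of 4, 7, 2 and 2. The shares of all genes were then 24.9%, 29.2%, 34.5% and 36.5%, above the share of the list in clusters 0, 3 and 4. With 200 or more counts they were 0 of 18, 1 of 7, 1 of 13 and 0 of 5 there (1.57%, 9.61%, 3.28% and 4.35% of all genes), 9 of 16 in cluster 9 (9.79%) and 6 of 11 in cluster 10 (2.45%). A pseudocount of 10 CPM gave 0 in each of clusters 0, 1, 3 and 4 (0.286% to 1.51% of all genes), and one of 1 CPM gave 1 in cluster 3 (4.89%). The changed totals and the scaled counts each gave 4 in clusters 1 and 3 (7.90% to 8.17% of all genes). Against HT the counts were 13, 4, 5, 4 and 6 in clusters 1, 3, 4, 8 and 10. The median log2 ratio of all genes over all cells was 0.07 as reported, 0.01 with the changed totals and -0.03 with scaled counts, and that of the list 0.65, 0.58 and 0.28. Genes of the list with 200 or more counts in WT and KO together numbered 18 in cluster 0 and 5 to 16 in the other 6 clusters.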
